A study of Mus musculus with 26 samples.

Results

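Pancreatic islets of 56-week-old mice were set against islets of 5-week-old mice after both had been kept in culture medium with 11 mM glucose. The comparison rests on 4 of the 26 arrays of the study: old replicates 1 and 2 and young replicates 3 and 4, all hybridised to Affymetrix whole-genome mouse arrays with 1 sample per array. All mice were male wild types, given as C57BL6 in 1 label and C57/Bl6J in another, and no group carried an introduced allele or received a drug. After isolation the islets recovered for 1 day in RPMI medium with 11 mM glucose, serum and antibiotics, and then stayed at the same glucose level for 2 more days. RNA was extracted with Trizol and 50 ng was labelled through 2 cycles of cDNA synthesis. Fresh islets of the same ages (2 arrays each) were used to ask whether an age difference was already there before culture. The replicates are labelled biological, but whether each came from its own mouse or from a pool is not said. The spread behind each p-value was pooled over all 26 arrays, so a p-value here reflects only how much the samples of the whole study varied.

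Islets are clusters of endocrine cells, mostly insulin-secreting beta cells, held together by capillaries, stellate cells and a thin extracellular matrix. Beta cells divide readily in young rodents and rarely in old ones, and their secretory load makes them prone to the stress response run by the transcription factors ATF4 and CHOP. Glucose at the level used here is above the fasting range and keeps beta cells secreting. RNA of whole islets mixes all cell types, so fewer cells of a type and less RNA per cell cannot be told apart.

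Young islets at 11 mM were measured on 4 arrays, and these fell into separate pairs. The array's control for RNA length compares Gapdh signal at the 5′ end with that at the 3′ end. That ratio was 1.26 and 1.03 on young arrays 3 and 4 and 1.34 and 1.33 on the old arrays, but 0.12 and 0.152 on young arrays 1 and 2. The young pairs differed from each other in 4988 genes (39.7%), so only young arrays 3 and 4 were compared with old islets, and the signals of young arrays 1 and 2 are given beside the genes they touch. Even within the chosen 4 arrays, other controls moved with age. Gapdh 3′ signal was 2987 and 4134 in old and 1342 and 1178 in young islets, and the hybridisation control BioB stood at 226 and 217 against 355 and 410. The labels name no batch, and the part of these controls in the age differences was not tested. The endocrine markers Iapp, Gcg, Ppy and Sst were among the brightest signals on all 4 arrays, between 8701 and 14701, while the summed signal of 19 acinar markers was 741 to 1208, against 14795 to 58313 on the fresh arrays.

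Of 12580 genes tested, 1961 (15.6%) differed between old and young islets at 11 mM at an adjusted p under 0.05 in limma: 1258 were higher in old islets (10.0%) and 703 were lower (5.59%). Without adjustment 3727 genes had a p under 0.05. A difference of at least 2-fold was reached by 315 of the changed genes, 200 of them higher and 115 lower. The median difference of all genes was 0.02 on the scale used throughout, log2 of (signal + 16). The split of calls depended on scaling: 64.2% of them were higher in old islets with the deposited scaling, but 45.9% after centring each array on its median, which moved the old minus young differences by 0.08. Genes of matrix, cell division and cholesterol synthesis were lower in old islets. Genes of the ATF4 and CHOP response and of glycolysis were higher in old islets than on the chosen young pair. These rises depended on that choice, since against the other young pair members of both lists went both ways. Of 22 beta cell genes 4 were called, a share near that of all genes, and of 10 genes of the other endocrine cells 0.

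**Figure D1:**
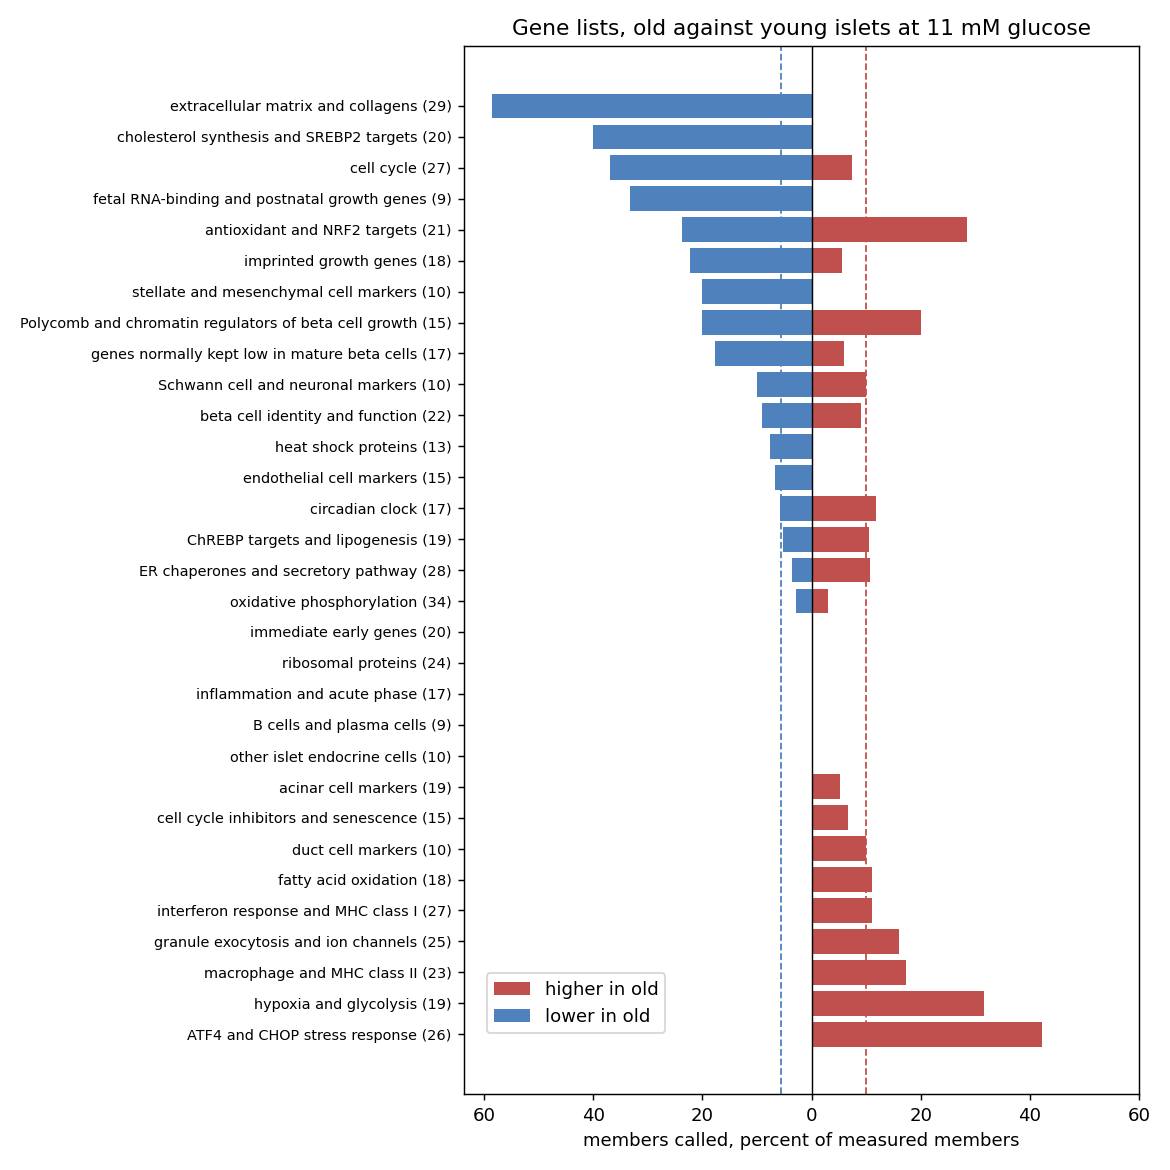
Share of each gene list called in old against young islets at 11 mM, in percent of its measured members (number in brackets, lists of 9 or more), with calls lower in old to the left and higher to the right. Dashed lines mark the share among all genes, 5.59% lower and 10.0% higher; matrix genes reach farthest to the left (17 of 29) and ATF4 and CHOP genes farthest to the right (11 of 26).

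The extracellular matrix was the group with the most falls. Of 29 measured matrix genes, 17 fell in old islets and 0 rose, where 5.59% of all genes fell. Their median difference was -1.06, and all 29 lay below 0, the smallest, of the laminin chain Lamc1, at -0.00. The list was chosen with such falls already known. Postn, encoding periostin, a matrix protein made by mesenchymal cells during growth and repair, read 193 and 170 in old islets and 817 and 688 in young islets. Its difference of -1.96 (SE 0.22, limma adjusted p 9.71e-06) was the largest fall among genes bright enough to be ranked. Young arrays 1 and 2 read 231 and 353, above both old arrays but far below young arrays 3 and 4.

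Fibrillar collagens fell together. Col3a1, which builds the fine fibres of soft tissue, read 611 and 680 in old islets against 2109 and 2116 in young islets, a difference of -1.69 (SE 0.24, limma adjusted p 0.000126). Col1a2, a chain of the main collagen of scars and bone, read 342 and 327 against 1232 and 1012 (-1.69, SE 0.28, limma adjusted p 0.000416). Its partner Col1a1 read 48 and 79 against 191 and 199 (-1.44, SE 0.29, limma adjusted p 0.00218). In all of these the old arrays lay below all 4 young arrays, since Col3a1 was 1660 and 1258, Col1a2 685 and 526 and Col1a1 189 and 159 on young arrays 1 and 2. Col5a2, which helps to set fibre width, fell from 984 and 996 in young to 341 and 427 in old islets (-1.34, SE 0.17, limma adjusted p 3.74e-05), and these 4 calls held in every alternative setting that was run.

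Matrix genes outside the fibrillar collagens also fell. They were Lum (-1.64), a fibre-binding proteoglycan, Lamb1 (-1.32), a laminin chain of basement membranes, Fn1 (-1.28), fibronectin, Lox (-1.23), which cross-links collagen, and Nid1 (-1.21), which links laminin to collagen IV. Col6a1 (-1.09), Tnc (-1.07), Fstl1 (-1.06) and Bgn (-1.01) completed them together with Col6a2 and Sparc, and Col5a1 (-0.95), a fibrillar chain, fell as well. On young arrays 1 and 2 Tnc read 56 and 68, between the old arrays (39 and 70), and Lamb1 (113 and 104) was not called against that pair (-0.43). Without old array 1 the calls of Lox (-0.80), Nid1 (-0.95), Col6a1 (-0.82), Tnc (-0.75) and Fstl1 (-0.73) were lost. Leaving out a young array ended those of Lox, Col6a1, Tnc and Col5a1 (array 3: -1.15, -0.98, -1.03, -0.81) and of Nid1 and Tnc (array 4: -1.10, -1.12). Col6a2 read 86 and 97 against 299 and 273, with no overlap, but its call (-1.49, limma adjusted p 0.0171) was lost whichever of the 4 arrays was left out, at values from -1.56 to -1.42. Sparc, a collagen-binding glycoprotein, read 332 and 348 against 865 and 763 (-1.22), yet young arrays 1 and 2 read 350 and 316, level with the old arrays, and the mean of its probe sets missed the threshold (-0.64, limma adjusted p 0.0593).

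Collagens of basement membranes did not pass against young arrays 3 and 4. Col4a1 read 393 and 403 in old and 441 and 439 in young islets (-0.14, limma adjusted p 0.625), and Col18a1 read 75 and 71 against 73 and 78 (-0.04). These groups lay close together or overlapped. On young arrays 1 and 2, however, Col4a1 read 892 and 801 and Col18a1 154 and 184, above both old arrays. Whether these genes differ from the fibrillar collagens was not tested. Dcn (-0.70) and Col6a3 (-0.69) stood just outside, at a limma adjusted p of 0.0624 and 0.061. The number of falling matrix genes was 11 without old array 1, 16 without old array 2, 12 without young array 3 and 14 without young array 4. It was 15 with all 4 young arrays, where 431 of all 12580 genes fell. With young arrays 1 and 2 in place of 3 and 4 it was 17, where 2558 of all genes fell.

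Markers of the cells that make matrix were also lower, in fewer members. Of 10 stellate and mesenchymal markers 2 fell and 0 rose, with a median difference of -0.55, where 5.59% of all genes fell. Rgs5, a pericyte marker, read 325 and 277 in old against 749 and 558 in young islets (-1.07, SE 0.19, limma adjusted p 0.000813). Pdgfrb, the platelet-derived growth factor receptor of pericytes and stellate cells, read 192 and 212 against 423 and 344 (-0.87, SE 0.16, limma adjusted p 0.00113), and young arrays 1 and 2 were higher still, at 503 and 417. Both calls held in every alternative. The summed signal of the 10 markers was 1420 and 1805 in old and 3029 and 2408 in young islets, without overlap. Acta2, the smooth muscle actin of activated stellate cells, read 206 and 239 against 293 and 230 (-0.21, limma adjusted p 0.585), but 530 and 345 on young arrays 1 and 2. The share of such cells in the samples was not measured, and its part in the fall of matrix genes was not tested. Of 15 endothelial markers only Emcn was called (-0.63, limma adjusted p 0.0493), and it was lost without any 1 of the 4 arrays (-0.78 to -0.49) and had the opposite sign against young arrays 1 and 2 (1.09).

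**Figure D2:**
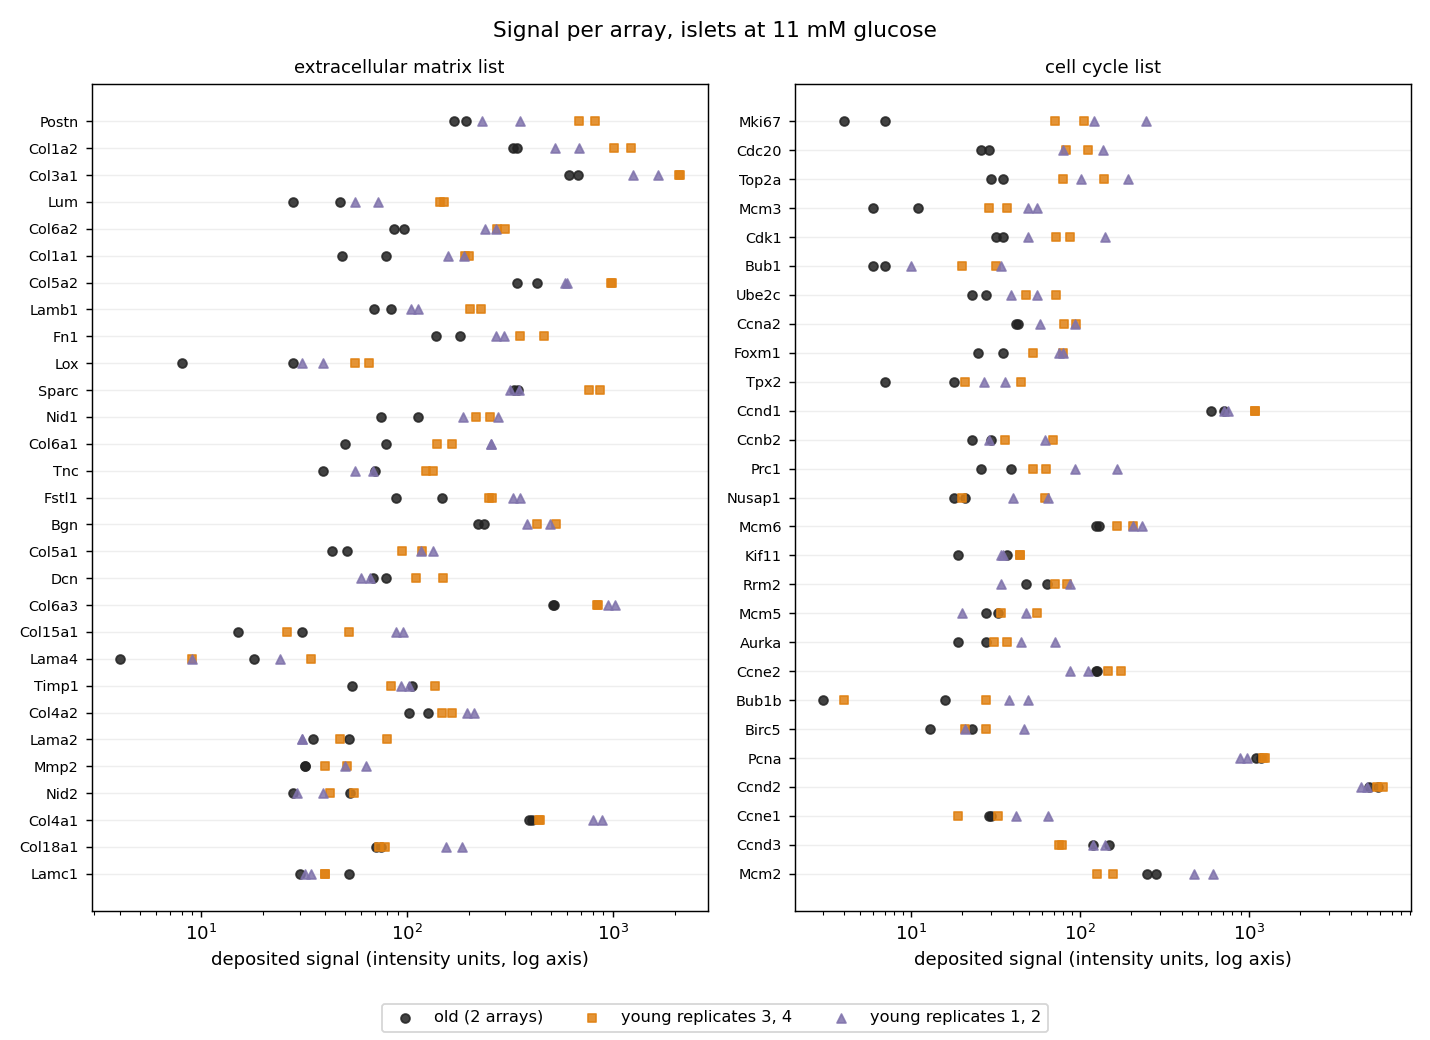
Deposited signal (log axis, intensity units) on each array for the 29 matrix genes (left) and the 27 cell cycle genes (right) at 11 mM, ordered by the old minus young difference; circles are old arrays, squares young arrays 3 and 4, triangles young arrays 1 and 2. At the top of both panels the circles lie to the left of all young symbols, as for Col3a1 (611 and 680 in old) and Mki67 (7 and 4 in old).

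Genes of cell division were lower in old islets. Among 27 measured cell cycle genes 10 fell and 2 rose, with a median of -0.58, where 5.59% of all genes fell and 10.0% rose. Mki67, the proliferation marker Ki-67, read 7 and 4 in old islets and 71 and 106 in young islets. The old signals lay well under the array medians of 34 to 40, and the difference of -2.26 (SE 0.26, limma adjusted p 1.13e-05) held in every alternative, at -3.79 with an offset of 1 and -1.12 with an offset of 64. On young arrays 1 and 2 Mki67 was higher again, at 121 and 246.

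Mitotic genes followed at low signal. Cdc20, which switches on the anaphase-promoting complex, read 26 and 29 against 83 and 111 (-1.37, SE 0.25, limma adjusted p 0.000906). Top2a, the topoisomerase that untangles chromosomes, read 35 and 30 against 79 and 139 (-1.32, SE 0.28, limma adjusted p 0.00275), and was lost without young array 4 (-0.97). As in every changed gene, and in 7193 of all 12580 genes, the groups did not overlap. For Cdc20 and Top2a the 2 other young arrays were also above both old arrays. Bub1, Ube2c, Ccna2, Tpx2, Mcm3 and Mcm6, with roles in the spindle checkpoint, cyclin turnover, S phase, the spindle and DNA licensing, fell by 0.49 to 1.00 on the log2 scale. Each of these 6 lost its call without at least 2 of the 4 arrays. With 1 array left out they read -1.09 to -0.68 for Bub1, -1.09 to -0.63 for Ube2c, -0.92 to -0.73 for Ccna2, -1.13 to -0.40 for Tpx2, -1.15 to -0.85 for Mcm3 and -0.64 to -0.35 for Mcm6. Cdk1, the mitotic kinase, had 32 and 35 against 72 and 87 (-0.94, limma adjusted p 0.0687) and did not pass.

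G1 cyclins did not move as 1 group. Ccnd1 read 601 and 715 in old and 1083 and 1084 in young islets (-0.71, SE 0.15, limma adjusted p 0.00254), but 713 and 755 on young arrays 1 and 2, against which it was not called (-0.16). Ccnd2, another D cyclin, read 5830 and 5143 against 5702 and 6179 (-0.12) with overlapping groups. Ccnd3 rose (148 and 119 against 75 and 78, 0.69), although young arrays 1 and 2 read 141 and 120 and the call was lost without old array 1 (0.55). Mcm2, a helicase subunit, was the other rise (0.85), with young arrays 1 and 2 at 474 and 611, above all others, and it was lost whichever of the 4 arrays was left out (0.70 to 0.99). The count of falling cell cycle genes was smaller whichever of the 4 arrays was left out. It was 15 with young arrays 1 and 2, where 2558 of all 12580 genes fell.

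Some regulators named in studies of ageing beta cells changed. Cdkn1b, the cell cycle inhibitor p27, rose from 828 and 625 in young to 1636 and 1824 in old islets (1.25, SE 0.15, limma adjusted p 1.83e-05), and it was 256 and 289 on young arrays 1 and 2. Its other probe set was dim (52 and 21 against 49 and 28), and the mean of both missed the threshold (0.58, limma adjusted p 0.0824). Among 15 inhibitor and senescence genes it was the only one called. Ezh2, the Polycomb methyltransferase that keeps cell cycle inhibitors silent, read 43 and 48 against 80 and 84 (-0.67, limma adjusted p 0.0452), and lost its call without any 1 of the 4 arrays (-0.73 to -0.61) and in 6 other settings. Rnf2, a ubiquitin ligase of the other Polycomb complex, read 611 and 586 against 836 and 887 (-0.51, SE 0.11, limma adjusted p 0.00263) and held in every alternative at 11 mM. Fresh islets showed no such fall, with 799 and 870 in old against 665 and 834 in young (0.16, limma adjusted p 0.375). The change in its age difference was -0.67 (SE 0.15, limma adjusted p 0.259), not past the threshold. Of the 15 Polycomb and chromatin genes, 3 rose and 3 fell, where 15.6% of all genes were called in either direction.

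Fetal and imprinted growth genes were mixed. Igf2bp3, a fetal RNA-binding protein, read 78 and 114 in old against 201 and 171 in young islets (-0.87, limma adjusted p 0.0196), and was not called without old array 1 (-0.63), young array 3 (-0.76) or young array 4 (-0.97). Of 18 imprinted genes 4 fell and 1 rose, where 5.59% of all genes fell and 10.0% rose. Grb10, an adaptor that restrains insulin receptor signalling, read 488 and 491 against 747 and 771 (-0.62, SE 0.14, limma adjusted p 0.00557), and Mest read 54 and 70 against 121 and 166 (-1.03). Mest was lost without young array 4 (-0.82). Igf2, the fetal growth factor, rose from 14 and 35 to 102 and 112 (1.65, limma adjusted p 0.000936), but read 75 and 87 on young arrays 1 and 2, which leaves 0.34 against them and no call.

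Genes of the ATF4 and CHOP response were higher in old islets than on the young pair chosen for the comparison. ATF4 is made when protein synthesis is slowed by stress and switches on amino acid transporters, serine and one-carbon enzymes and CHOP (Ddit3). Of 26 measured members 11 rose and 0 fell, where 10.0% of all genes rose, and the median was 0.44. Nupr1, a small chromatin protein induced by stress and by ATF4, carried the largest difference. It read 1846 and 2018 in old islets against 378 and 492 in young islets, 2.12 higher (SE 0.21, limma adjusted p 2.78e-06). Young arrays 1 and 2 read 346 and 594, so all 4 young arrays lay below both old ones, and the call held in every alternative.

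The promoter of Nupr1 was the 1 window among the 23 list members found in the RefSeq promoter table (build GRCm38.p6) that held the ATF4 and CHOP element TGATGNAAT (N is any base) on either strand. It is shown because Nupr1 has the largest rise of the list. The window spans chr7:126625421-126625720 on the minus strand, from 250 bases before to 50 after the start of transcription, and capitals mark the match, which starts at -111 and reads as the reverse complement, ATTNCATCA:
Nupr1: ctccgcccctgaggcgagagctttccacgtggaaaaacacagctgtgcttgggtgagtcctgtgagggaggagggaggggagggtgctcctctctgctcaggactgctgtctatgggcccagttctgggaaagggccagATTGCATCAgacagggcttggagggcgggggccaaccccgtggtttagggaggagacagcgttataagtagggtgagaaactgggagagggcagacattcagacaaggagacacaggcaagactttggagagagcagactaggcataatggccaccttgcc
The element was present in 317 of 32851 windows of this length (0.965%). A match describes the letters of this window and was not a measurement of binding.

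Other members rose less and depended more on the young arrays. Slc7a5 and Slc3a2, the paired chains of a transporter for large neutral amino acids, read 1067 and 1166 against 517 and 565 (1.02, limma adjusted p 3.04e-05) and 1779 and 1562 against 997 and 1025 (0.71, limma adjusted p 0.000729). Shmt2, the mitochondrial serine hydroxymethyltransferase, read 368 and 444 against 191 and 131 (1.27, limma adjusted p 2.05e-05). Atf5, a transcription factor of the same pathway, read 1202 and 1417 against 710 and 643 (0.93, limma adjusted p 0.000628). On young arrays 1 and 2, however, Shmt2 was 969 and 903, above both old arrays, and Slc7a5 (977 and 1047), Slc3a2 (2055 and 1737) and Atf5 (1370 and 1191) were close to the old arrays. Against that pair the differences were -1.18 for Shmt2, 0.14 for Slc7a5, -0.18 for Slc3a2 and 0.03 for Atf5.

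Ddit3, the gene of CHOP itself, and Cebpb, its dimer partner, were lowest on young arrays 1 and 2. Ddit3 read 649 and 864 in old, 397 and 484 on young arrays 3 and 4 and 257 and 251 on young arrays 1 and 2 (0.75, limma adjusted p 0.0138). Cebpb read 822 and 824, 449 and 532, and 193 and 237 in the same order (0.73, limma adjusted p 0.0157). Both old arrays were above all 4 young arrays in these genes. The call of Ddit3 was lost without old array 2 (0.55) or young array 3 (0.61), and that of Cebpb without old array 1 (0.73), old array 2 (0.73) or young array 3 (0.61). Phgdh (0.81), the first enzyme of serine synthesis, Chac1 (0.78), which degrades glutathione, Ppp1r15a (0.69), which restarts translation, and Aldh18a1 (0.65), of proline synthesis, also rose against young arrays 3 and 4. Without old array 2, Phgdh (0.75), Chac1 (0.58) and Ppp1r15a (0.64) were not called, and Phgdh and Ppp1r15a were lost without either young array as well (0.78 to 0.84 and 0.68 to 0.70). On young arrays 1 and 2 Phgdh (937 and 1188), Chac1 (1279 and 999), Ppp1r15a (195 and 213) and Aldh18a1 (2985 and 3091) were close to or above the old arrays. Atf4 mRNA read 3687 and 3988 against 2991 and 3197 (0.31, limma adjusted p 0.0868), without overlap and without passing. Asns, asparagine synthetase, read 3628 and 2717 against 3073 and 2760 (0.11) with overlapping groups, and Trib3 (0.66) did not pass.

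The number of rising ATF4 and CHOP genes was 10 without old array 1, 6 without old array 2, 7 without young array 3 and 9 without young array 4. With all 4 young arrays it was 4, where 438 of all 12580 genes rose. With young arrays 1 and 2 alone 6 rose and 4 fell, at a median of -0.06. In that setting 1820 of all genes rose and 2558 fell. Of 28 genes for chaperones and the secretory pathway of the endoplasmic reticulum, 3 rose and 1 fell. This share is near the 15.6% of all genes called. Sel1l, an adaptor of protein degradation at that membrane, read 1765 and 1638 against 1072 and 1207 (0.57, limma adjusted p 0.0048), with young arrays 1 and 2 at 1031 and 1053. It was lost without young array 3 (0.49) and as the mean of its probe sets (0.15).

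**Figure D3:**
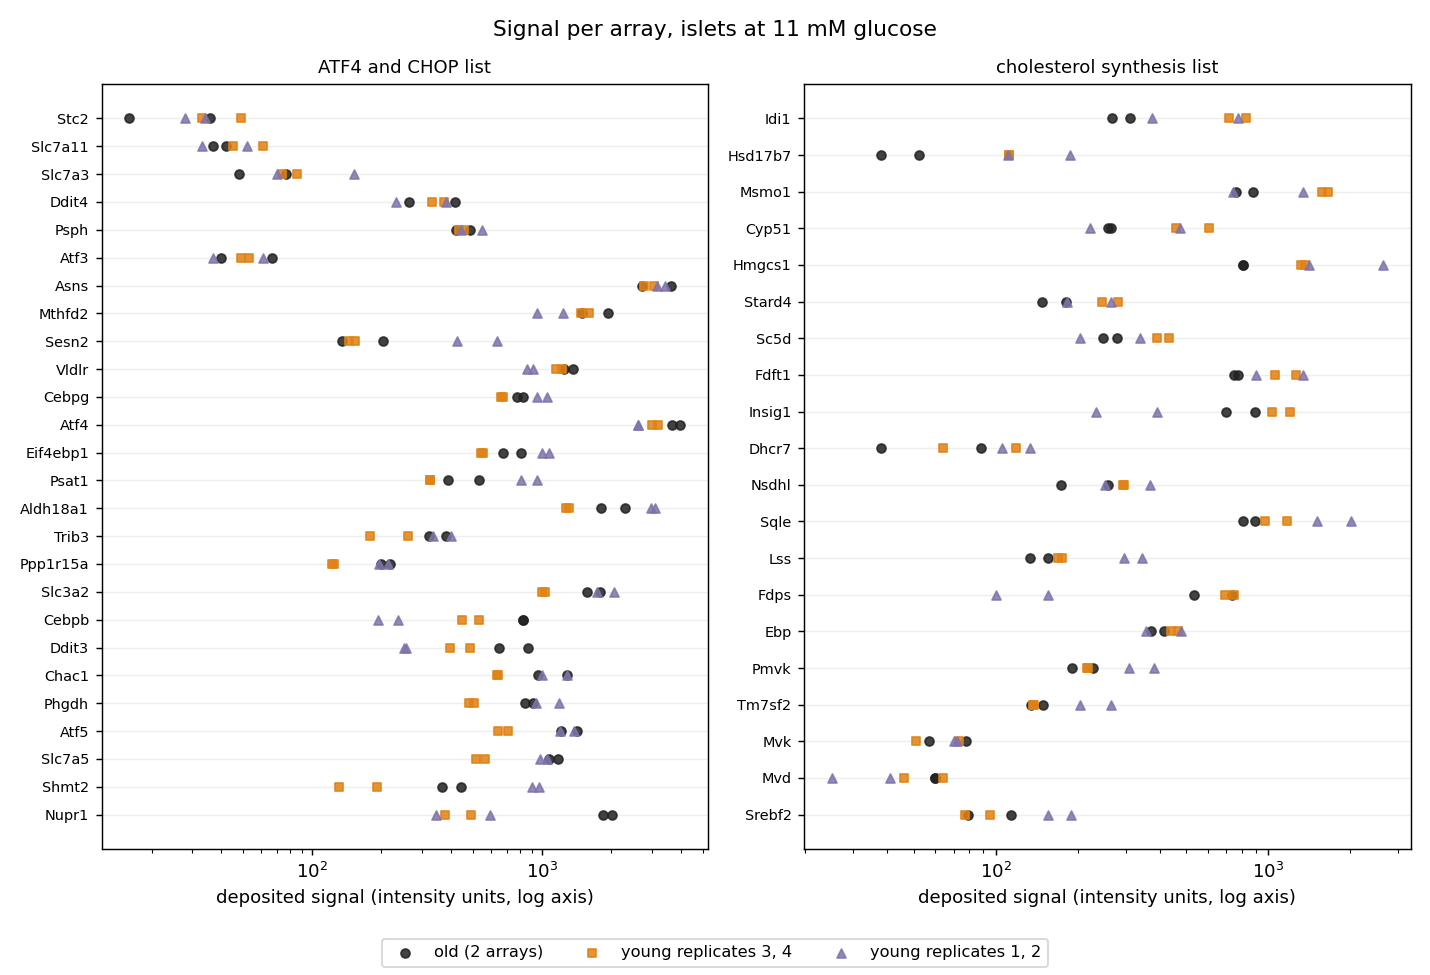
Deposited signal (log axis, intensity units) on each array at 11 mM for the 26 ATF4 and CHOP genes (left) and the 20 cholesterol synthesis genes (right), ordered by the old minus young difference; symbols as in the plot of matrix genes. For Nupr1 both old arrays (1846 and 2018) lie above every young array, while for Shmt2 young arrays 1 and 2 (969 and 903) lie above the old arrays.

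Cholesterol synthesis genes were lower in old islets. These genes are switched on together by SREBP2 when cell sterols run low. Of 20 measured members 8 fell and 0 rose, with a median of -0.46, where 5.59% of all genes fell. Idi1, which interconverts the isoprenoid building blocks of the pathway, read 312 and 266 in old islets and 719 and 827 in young islets (-1.37, SE 0.29, limma adjusted p 0.00286), a call that held in every alternative. Young arrays 1 and 2 were apart, at 374 and 776, and both above the old arrays.

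The enzymes that follow fell by smaller amounts. Hsd17b7, a sterol ketone reductase, read 52 and 38 against 112 and 112 (-1.08, limma adjusted p 0.00233). Msmo1 and Cyp51, which strip methyl groups from the sterol ring, read 876 and 761 against 1580 and 1664 (-0.98, limma adjusted p 0.00476) and 264 and 259 against 458 and 608 (-0.97, limma adjusted p 0.00572). Fdft1, squalene synthase, read 750 and 775 against 1059 and 1266 (-0.59, limma adjusted p 0.0165). Like every changed gene, and 7193 of all 12580 genes, none of these overlapped between the old arrays and young arrays 3 and 4. Young arrays 1 and 2 read 111 and 187 for Hsd17b7 and 904 and 1343 for Fdft1, above both old arrays. For Msmo1 (740 and 1341) and Cyp51 (221 and 475) 1 of that pair lay below both old arrays, and neither was called against it (-0.28 and -0.30). In addition, leaving out old array 2 ended all 4 calls, at -0.91 for Hsd17b7, -0.88 for Msmo1, -0.96 for Cyp51 and -0.62 for Fdft1. Leaving out young array 4 ended those of Cyp51 (-0.77) and Fdft1 (-0.47), and leaving out old array 1 that of Fdft1 (-0.57).

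Hmgcs1, the enzyme of the first committed condensation, read 806 and 810 in old and 1323 and 1362 in young islets (-0.72, SE 0.20, limma adjusted p 0.0203). Young arrays 1 and 2 read 1412 and 2637, again above both old arrays, but the call was lost whichever of the 4 arrays was left out (-0.74 to -0.70). Its promoter was the 1 of 16 members in the RefSeq table that held the sterol regulatory element TCACNCCAC on either strand, and it is shown as the member whose fall can be read beside that element. The window lies at chr13:119690101-119690400 on the plus strand of GRCm38.p6, and the match in capitals starts at -137:
Hmgcs1: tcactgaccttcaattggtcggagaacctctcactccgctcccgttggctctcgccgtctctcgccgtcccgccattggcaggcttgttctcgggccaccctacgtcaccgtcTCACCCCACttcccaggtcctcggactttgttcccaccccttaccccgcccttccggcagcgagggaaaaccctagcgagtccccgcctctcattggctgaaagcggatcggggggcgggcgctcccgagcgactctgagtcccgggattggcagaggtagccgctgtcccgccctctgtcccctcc
It was found in 408 of the 32851 windows (1.24%), and no binding was measured. Stard4 (-0.63), a sterol carrier, and Sc5d (-0.62), a sterol desaturase, were the remaining falls, and both were lost without any 1 of the 4 arrays (-0.76 to -0.50 and -0.70 to -0.54). Sqle, squalene epoxidase, read 896 and 808 against 974 and 1175 (-0.32) and Srebf2, the gene of SREBP2, 114 and 79 against 95 and 77 (0.13), and neither passed. The count of falls was 4 without old array 1, 2 without old array 2, 5 without young array 3 and 3 without young array 4. It was 11, with 2 rises, against young arrays 1 and 2, where 2558 of all 12580 genes fell and 1820 rose.

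Genes of glycolysis and the hypoxia response were higher against young arrays 3 and 4. Of 19 members 6 rose and 0 fell, with a median of 0.52, where 10.0% of all genes rose. P4ha2, a collagen prolyl hydroxylase induced by low oxygen, read 235 and 218 in old and 99 and 103 in young islets (1.05, SE 0.19, limma adjusted p 0.000811), with young arrays 1 and 2 at 79 and 88, and held in every alternative. Vegfa, the vascular growth factor, read 1655 and 1816 against 1042 and 989 (0.76, limma adjusted p 0.00031), with 1449 and 1385 on the other young pair. The glycolytic enzymes Aldoa (0.82) and Tpi1 (0.90) rose, and both old arrays exceeded all 4 young arrays in each (for Tpi1 1511 and 2011 against 904, 953, 1049 and 1212). Tpi1 was lost without old array 2 (0.69) or young array 3 (0.86).

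Pkm and Pfkl showed how far the result could turn on the young arrays. Pkm, pyruvate kinase, read 972 and 1064 in old, 358 and 280 on young arrays 3 and 4, and 2363 and 1808 on young arrays 1 and 2. The difference was 1.63 against the first pair (limma adjusted p 2.42e-06) and -1.01 against the second. Pfkl, the liver-type phosphofructokinase, read 160 and 212, 59 and 60, and 753 and 660, with 1.41 (limma adjusted p 0.000571) against the first pair and -1.85 against the second.

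Antioxidant genes went both ways: of 21, 6 rose and 5 fell, where 10.0% of all genes rose and 5.59% fell. The metallothioneins, which bind zinc and copper, rose together. Mt2 read 1888 and 2506 in old and 843 and 700 in young islets (1.48, SE 0.25, limma adjusted p 0.000467), a call held in every alternative, and Mt1 read 3749 and 4344 against 1941 and 1609 (1.18, limma adjusted p 0.0157). For both genes young arrays 1 and 2 were also below the old ones, and Mt1 was lost without old array 2 (1.08) or young array 4 (1.05). The glutathione transferase Gstm1 read 1805 and 1944 against 951 and 616 (1.27), though young arrays 1 and 2 read 2377 and 1448 and the call was lost without young array 4 (0.97).

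Gpx2, a glutathione peroxidase best known from gut epithelium, fell. It read 271 and 293 in old against 674 and 724 in young islets, with 701 and 826 on young arrays 1 and 2 (-1.26, SE 0.21, limma adjusted p 0.000444, held in every alternative). Nqo1, a quinone reductase controlled by NRF2, read 64 and 109 against 162 and 192 (-0.94), but 66 and 57 on young arrays 1 and 2, and was lost without old array 1 (-0.62) or young array 4 (-0.83). Hmox1, heme oxygenase, read 146 and 143 against 116 and 123 (0.24) and did not pass, nor did Sod1, Sod2, Gclc or Gclm.

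Beta cell genes were called about as often as all genes. Of 22, 2 rose and 2 fell, where 15.6% of all genes were called, and the median was -0.07. Ins2, an insulin gene, read 5068 and 3500 in old and 4254 and 4706 in young islets (-0.09, limma adjusted p 0.836), with overlapping groups. Slc2a2, the glucose transporter of beta cells, read 6884 and 4765 against 7637 and 7294 (-0.38, limma adjusted p 0.507). Pdx1, the transcription factor of beta cell identity, read 1103 and 1211 against 843 and 930 (0.38, limma adjusted p 0.338). Ucn3, a hormone that marks mature beta cells, read 4202 and 4021 against 2210 and 1765 without overlap, and missed the threshold (1.05, SE 0.37, limma adjusted p 0.0582).

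The 4 beta cell calls were of small size. Abcc8, the sulfonylurea receptor of the potassium channel that couples glucose to secretion, read 3771 and 3451 against 1961 and 2310 (0.76, SE 0.11, limma adjusted p 0.000167), but 4530 and 4515 on young arrays 1 and 2. Foxa2, a factor upstream of Pdx1, read 1175 and 1151 against 826 and 885 (0.44), but 1529 and 1684 on young arrays 1 and 2, and lost its call without young array 3 (0.39). Pcsk1, which cuts proinsulin, read 1841 and 1456 against 2313 and 2473 (-0.54), and Sytl4, which docks granules, 3246 and 2254 against 3824 and 3911 (-0.51). Without old array 2 these were -0.37 and -0.25, without young array 3 -0.59 and -0.53, and without young array 4 -0.49 and -0.50, each time without a call. On young arrays 1 and 2 Pcsk1 read 1734 and 2715, spanning the old arrays. Of 10 genes of the other endocrine cells limma called 0, and 2 were lower at an unadjusted p under 0.05. Gcg, the glucagon gene, read 11615 and 10041 against 12966 and 14468 (-0.34), and Sst, of delta cells, differed by -0.00. In fresh islets 5 of these 10 genes were lower in old islets, where 3.70% of all genes were lower. Their median was -0.49 there beside -0.33 at 11 mM.

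Of 25 granule and ion channel genes 4 rose and 0 fell, where 10.0% of all genes rose. Atp2a3, a calcium pump of the endoplasmic reticulum, read 1865 and 1826 against 1156 and 1104 (0.70, SE 0.16, limma adjusted p 0.00482), with 1325 and 1794 on young arrays 1 and 2. Vamp2, the vesicle protein that drives granule fusion, read 512 and 639 against 197 and 285 (1.22), but 855 and 999 on young arrays 1 and 2. Rph3al, a granule docking protein, read 1443 and 1537 against 950 and 1051 (0.57), but 3003 and 2795 on young arrays 1 and 2, and was lost without old array 2 (0.52) or young array 3 (0.50). Among mitochondrial genes, Hadha, of fatty acid oxidation, read 323 and 360 against 197 and 173 (0.83, SE 0.15, limma adjusted p 0.000748), with 177 and 157 on young arrays 1 and 2, and held in every alternative. Ppargc1a, a coactivator that raises mitochondrial genes, read 96 and 74 against 36 and 25 (1.12, limma adjusted p 0.00393), and was lost without young array 4 (0.95). Of 34 oxidative phosphorylation genes 1 rose and 1 fell, fewer than the 15.6% of all genes called.

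Immune genes were higher in a few members. Of 23 macrophage and MHC class II genes 4 rose and 0 fell, with a median of 0.29, where 10.0% of all genes rose. Their summed signal was 7370 and 7376 in old and 6273 and 4771 in young islets. C1qa, a complement gene of tissue macrophages, read 1180 and 1136 against 774 and 530 (0.84, limma adjusted p 0.0212), with 536 and 383 on young arrays 1 and 2. It was lost without old array 1 (0.81), old array 2 (0.86) or young array 4 (0.57), and the list's count fell to between 0 (without old array 2) and 2. Csf1r, the macrophage growth factor receptor (0.29), and H2-Aa, an MHC class II chain (349 and 229 against 370 and 367, -0.36, limma adjusted p 0.558), did not pass. H2-D1, an MHC class I heavy chain, read 3021 and 3012 in old against 1955 and 2035 in young islets (0.59, SE 0.11, limma adjusted p 0.00115) and 2347 and 2138 on the other young arrays, and held in every alternative. Its list of 27 interferon and MHC class I genes had 3 rises and 0 falls, a share of rises near that of all genes. Of 9 B cell genes limma called 0, also without adjustment, and Cd79a, a B cell receptor subunit, stayed between 3 and 29 on the 4 arrays. Of 4 measured T cell and cytotoxic genes 2 rose and 0 fell, where 10.0% of all genes rose. Ccl5 read 74 and 85 against 33 and 16 (1.27, limma adjusted p 0.018). Il7r read 74 and 77 against 40 and 30 (0.85, limma adjusted p 0.0457). Both were dim, and their calls were lost in 4 and 8 alternatives.

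The remaining lists had counts to be read against the 15.6% of all genes called. Hspa8, a constitutive heat shock protein, was the only call among 13 heat shock genes (3682 and 4326 against 6485 and 6466, -0.70, limma adjusted p 0.00412), with young arrays 1 and 2 at 5488 and 4760. Txnip, the glucose-induced arrestin that binds thioredoxin, read 1305 and 1037 in old against 706 and 802 in young islets (0.62, limma adjusted p 0.0374). Its groups did not overlap, but the call was lost without any 1 of the 4 arrays (0.45 to 0.78). It was 1 of 2 rises, beside 1 fall, among 19 lipogenesis and ChREBP genes.

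Oat, ornithine aminotransferase, a gene kept low in mature beta cells, read 56 and 74 against 191 and 162 (-1.25, SE 0.22, limma adjusted p 0.000877), with 160 and 255 on young arrays 1 and 2, and held in every alternative. That list had 3 falls and 1 rise in 17. The clock list had 2 rises and 1 fall in 17 genes, oxidation of fatty acids 2 rises in 18, the duct list 1 rise in 10 (Krt7, a duct keratin, 0.66) and the acinar list 1 rise in 19 (Bhlha15, a secretory cell factor, 1.00). Bhlha15 read 425 and 673 on young arrays 1 and 2, spanning the old arrays (491 and 537), and was lost without old array 1 (1.07), old array 2 (0.94) or young array 3 (0.71). Limma called 0 of 24 ribosomal protein genes and 0 of 17 inflammation genes, and 0 in each at an unadjusted p under 0.05.

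The 15 largest rises and 15 largest falls with no overlap between groups and a mean signal of at least 200 in the brighter group were ranked. Rasd2, a small Ras-like GTPase, read 198 and 225 in old and 38 and 3 in young islets (2.83, SE 0.41, limma adjusted p 0.000155). Its young signals were below their array medians of 40 and 38, so the size is poorly fixed: it was 4.09 with an offset of 1, 1.73 with an offset of 64 and 1.74 as the mean of its probe sets, called each time. Tmem59l, a membrane protein best known from brain, read 548 and 670 against 137 and 135 (2.03, SE 0.23, limma adjusted p 9.71e-06). Reln, a secreted guide of migrating neurons, read 255 and 191 against 34 and 71 (1.84, SE 0.35, limma adjusted p 0.00145). In these genes young arrays 1 and 2 were also low, at 82 and 44, 166 and 210, and 23 and 40, and the calls held in every alternative.

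Snhg11, a long noncoding RNA, was 1.87 higher, Clip4, a linker protein of microtubules, 1.85, and Get3, which inserts tail-anchored membrane proteins, 1.85, each also held. Bsg, a chaperone of lactate transporters, read 2077 and 2943 against 656 and 725 (1.82, SE 0.13, limma adjusted p 6.46e-08), with 954 and 1069 on young arrays 1 and 2. Of the 15 rises, 10 had both old arrays above young arrays 1 and 2 as well. The 5 that did not were Mlec, Mlf2, Pdap1, Rgs11 and Pkm. Mlec, a glycan-binding protein of the endoplasmic reticulum, read 703 and 877 in old, 175 and 230 on young arrays 3 and 4, and 1170 and 1382 on young arrays 1 and 2. Another of its probe sets read 372 and 384 against 294 and 376.

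Among the falls beside the collagens, Ugt2b35, a glucuronyl transferase, read 81 and 104 in old and 397 and 401 in young islets (-1.94, SE 0.34, limma adjusted p 0.000646), with 527 and 426 on young arrays 1 and 2. Fbp1, the gluconeogenic fructose bisphosphatase, read 238 and 308 against 689 and 790 (-1.39, SE 0.20, limma adjusted p 0.000114), with 575 and 732 on the other young pair. Cilp, a cartilage matrix protein, read 58 and 63 against 194 and 267 (-1.67, limma adjusted p 3.37e-05), and Stxbp5l, a tomosyn that restrains granule fusion, 97 and 59 against 270 and 207 (-1.46, limma adjusted p 0.000975). All 4 held in every alternative.

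Sult1d1, a sulfotransferase, read 354 and 444 against 1086 and 1204 (-1.49), with young arrays 1 and 2 at 573 and 473, just above the old ones. Prss23, a serine protease (-1.34), was lost without old array 1 (-1.19) or young array 4 (-1.20). Of the 15 falls, 12 had both old arrays below young arrays 1 and 2. The others were 1810014B01Rik, which read 102 and 61 against 275 and 323 but 17 and 22 on young arrays 1 and 2, Usp15, a deubiquitinase, and Fahd2a, a hydrolase. Usp15 (-1.42; 154 and 123 on young arrays 1 and 2) was lost without old array 2 (-1.10), and Fahd2a (-1.36; 251 and 561) without old array 1 (-1.16) or young array 3 (-1.13).

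**Figure D4:**
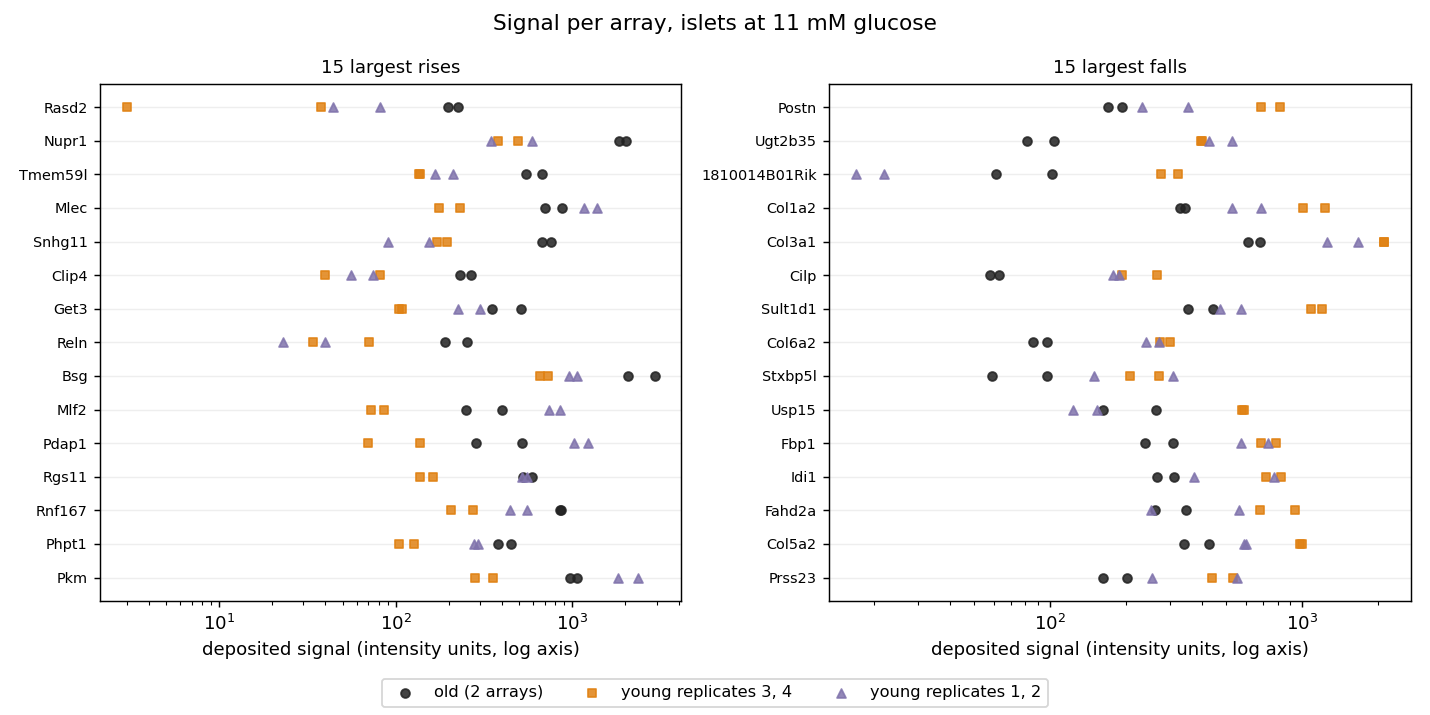
Deposited signal (log axis, intensity units) on each array at 11 mM for the 15 largest rises (left) and falls (right); circles are old arrays, squares young arrays 3 and 4, triangles young arrays 1 and 2. The circles lie on the same side of all young symbols for 10 rises and 12 falls, and Mlec, Mlf2, Pdap1 and Pkm have their triangles beyond the circles.

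Fresh islets gave the same comparison before culture, on arrays not shared with the cultured islets. Whether fresh and cultured islets came from the same mice is not said. There 1188 of 12580 genes differed by age (9.44%), 723 higher (5.75%) and 465 lower (3.70%) in old islets. Of the 1961 genes called at 11 mM, 673 were also called in fresh islets in the same direction, 482 higher and 191 lower, which is 34.3% of the calls at 11 mM and 56.6% of those in fresh islets. The opposite direction was called for 2 genes. The sign was shared by 94.5% of the genes called at 11 mM and by 71.8% of all genes. Control signals moved with age on these arrays too, with Gapdh 3′ signal at 1878 and 1962 in old against 938 and 952 in young fresh islets, and their part in the overlap was not tested.

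Matrix, cell cycle and ATF4 genes differed by age in fresh islets as well. In fresh islets 14 of 29 matrix genes fell (median -0.76), 17 of 27 cell cycle genes fell (median -0.96) and 13 of 26 ATF4 and CHOP genes rose (median 0.51). Of all genes 3.70% fell and 5.75% rose there, and their median was 0.00. Mki67 was 10 and 12 in fresh old and 278 and 224 in fresh young islets (-3.30, limma adjusted p 6.25e-07). Nupr1 was 1270 and 1375 against 239 and 212 (2.47, limma adjusted p 1.2e-06), and Postn 35 and 60 against 210 and 178 (-1.75, limma adjusted p 5.07e-05). In each of these the old arrays were apart from the young ones both fresh and cultured. Cholesterol genes were called in 2 of 20 members in fresh islets, Hsd17b7 (-0.75) and Ebp (-0.62), where 9.44% of all genes were called. Their median was -0.23. Idi1 was 337 and 290 against 467 and 470 (-0.56, limma adjusted p 0.236), and the change in its age difference was -0.81 (SE 0.41, limma adjusted p 0.65), not past the threshold.

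**Figure D5:**
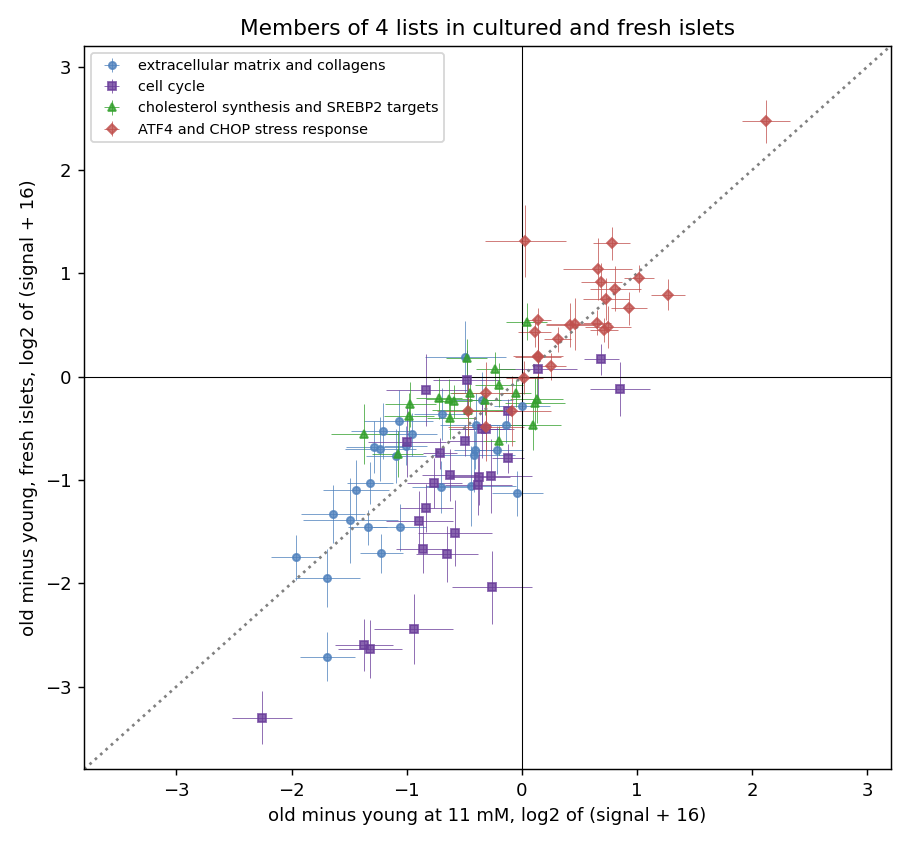
Old minus young difference at 11 mM (horizontal) and in fresh islets (vertical), both as log2 of (signal + 16), for the members of 4 lists; bars are limma standard errors and the dotted line marks equal differences. Nupr1 lies at the top right (2.12 and 2.47), Mki67 at the bottom left (-2.26 and -3.30), and none of the plotted genes was called for a difference between the comparisons.

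A test of the difference between the comparisons called 3 of 12580 genes (0.0238%), while 977 had an unadjusted p under 0.05. Gstp1, a glutathione transferase, read 4752 and 5275 in old and 7168 and 7399 in young islets at 11 mM, a fall of 0.54 on the log2 scale, and 1972 and 2021 against 1415 and 1343 in fresh islets, a rise of 0.53. On young arrays 1 and 2 at 11 mM Gstp1 read 5297 and 4650, level with the old arrays (0.01). Fosb, an immediate early gene, read 8 and 5 against 12 and 18 at 11 mM, near the bottom of the array's range, and 421 and 271 against 62 and 60 in fresh islets (2.20 higher). Ap2m1, a clathrin adaptor subunit, read 320 and 388 against 145 and 149 at 11 mM (1.18 higher) and 297 and 244 against 225 and 267 in fresh islets (0.13). The changes in the age difference were -1.07 (SE 0.16, limma adjusted p 0.0166), -2.66 (SE 0.43, limma adjusted p 0.0288) and 1.05 (SE 0.18, limma adjusted p 0.0424).

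Immediate early genes as a list showed the same contrast in count. In fresh old islets 8 of 20 were higher, where 5.75% of all genes were. At 11 mM 0 of 20 were higher, where 10.0% of all genes were. Fosb was the only member for which the difference between the comparisons was called. At an unadjusted p under 0.05, 2 of the 20 were higher and 2 lower at 11 mM. Fresh islets also carried more acinar signal in old (summed 31118 and 58313) than in young samples (26879 and 14795), and its part in these values was not tested.

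Old islets were also cultured at lower glucose, on arrays of the same high Gapdh ratio, while young islets at those levels lie in the other array set and were not compared. Nupr1 in old islets read 6567 and 5969 at 3 mM, 6709 and 4420 at 5.5 mM and 1846 and 2018 at 11 mM, so at every glucose level it lay above young islets at 11 mM (378 and 492). Mt2 read 6406 and 6561, 6157 and 5329, and 1888 and 2506 in the same order. Idi1 read 90 and 115, 96 and 130, and 312 and 266, below young islets at 11 mM (719 and 827) throughout. Postn (182 and 239, 170 and 206, 193 and 170), Mki67 (18 and 15, 14 and 27, 7 and 4) and Gpx2 (309 and 216, 217 and 210, 271 and 293) in old islets stayed below young arrays 3 and 4 at 11 mM at all 3 glucose levels. On young array 1 at 11 mM Postn read 231, below 1 old array at 3 mM (239).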

How the data were processed

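The comparison used 4 arrays (old replicates 1 and 2, young replicates 3 and 4 at 11 mM), and fresh islets gave a second one (2 arrays per age). The authors deposited linear intensity values, 1 per probe set, computed by MAS5 per the submitters' processing notes; its version and settings are not given in the sources used here. Each array has a mean of 150 once the outer 2% at both ends are left out, which shows a scaling done before deposit. For arrays, their number limits the precision, and detection calls were not used here.

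Of 45101 probe sets, 34945 had 1 gene symbol in the platform annotation, 932 several, 9160 none, and 64 were controls. Those with several were not used. For 34741 probe sets the symbol was brought up to date by Entrez number. Intensities were taken as log2 of (signal + 16), which understates changes of dim genes. A probe set had to exceed the median of its array on 2 or more of the 26 arrays (23047 did), and the brightest stood for its gene (12580 genes). limma 3.58.1 (R 4.3.3) fitted 13 group means to the 26 arrays together, with an intensity trend (13 residual and 7.02 prior degrees of freedom). Separately, the same fit was run on simulated arrays with normal noise and changes planted in old islets at 11 mM. It recovered 79% of changes of 1 and 98% of changes of 2 on the log2 scale, and 6 of 183 calls were false. Real arrays can depart from such noise. The simulated arrays held no shift between array sets like that between the young pairs, so the share of false calls does not cover such a shift. Genes are said to rise, fall or change at a Benjamini-Hochberg adjusted p under 0.05. Values are given per array, and SE is limma's standard error.

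Genes were named by rule: the 15 largest rises and falls among changed genes with no overlap between groups and a mean signal of at least 200 in the brighter group, up to 5 members of each of 35 lists with the smallest adjusted p, and a fixed set of islet genes. Further list members, Gstp1, Fosb and Ap2m1 were named after their values were seen. Members and lists were chosen with earlier results of these data known. Alternatives changed the offset, the filter, the probe set rule, the scaling, the arrays fitted, the intensity trend, the young arrays and each replicate in turn. Promoter windows and motifs came from RefSeq's table for GRCm38.p6, searched on both strands. Replicate numbers are not shared between the old and young arrays compared at 11 mM. In fresh islets same-numbered old and young samples did not deviate together (r = -0.0129), so no pairing across age was assumed. Pairing of fresh with cultured islets of the same age was not checked, and the test of the difference between the comparisons assumed none. Nnt, described below, followed the replicate number in young islets.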

Additional observations from a re-analysis of the deposited data

Results flagged for a closer look

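For 3 genes the old against young difference at 11 mM differed from that in fresh islets by limma's test of the difference itself. For Gstp1 the difference between them was -1.07 on the log2 scale, since it was lower in old islets than on young arrays 3 and 4 at 11 mM and higher in fresh old islets; young arrays 1 and 2 (5297 and 4650) were level with the old arrays (4752 and 5275), which left 0.01 and no fall. For Fosb it was -2.66, which came from the fresh arrays, as all signals at 11 mM were 18 or less. For Ap2m1 it was 1.05, from a rise at 11 mM alone, where young arrays 1 and 2 (713 and 751) lay above both old arrays (320 and 388).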

How the results depend on the processing

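The count of genes changed at 11 mM (1961) stayed within 1.5 times under 10 settings that kept these 4 arrays and was 1226 when only the 4 arrays compared were fitted. It was 869 with all 4 young arrays (619 of them shared in direction with the 1961) and 4378 with young replicates 1 and 2 in place of 3 and 4 (598 shared, 1820 higher and 2558 lower). Leaving out 1 array gave 729 (without old replicate 2) to 1723 (without old replicate 1). The fresh count (1188) was 644 from its 4 arrays alone and 414 to 668 with 1 array left out. The count of genes whose age difference changed between culture and fresh islets (3) was 5 with an offset of 64, 1 after quantile normalization, 0 with all 4 young arrays, 2775 with young replicates 1 and 2, and 0 to 7 with 1 array left out (0 without fresh young replicate 2, 7 without fresh old replicate 1 or without young replicate 3). With a replicate block the counts were 2153 at 11 mM, 1380 in fresh islets and 5 for the difference; the old and young arrays compared at 11 mM share no number.

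Of 122 named genes 114 were called; 31 of these were called in every alternative, 82 lost their call in at least 1 and 25 changed sign in at least 1. With young replicates 1 and 2 in place of 3 and 4 the differences turned to -0.68 for Mlec, -1.29 for Mlf2, -1.50 for Pdap1, -1.01 for Pkm, 1.43 for 1810014B01Rik, 0.54 for Usp15, -0.32 for Abcc8, -0.46 for Foxa2, -0.21 for Ring1, 0.46 for Slc38a4, 0.03 for Sparc, 1.09 for Emcn, -0.06 for Bhlha15, -0.26 for Th, -1.18 for Shmt2, -0.18 for Slc3a2, -0.03 for Ern1, -0.19 for Syvn1, 0.14 for Hsp90b1, 0.01 for Gstp1, 0.37 for Nqo1, -0.68 for Vamp2, -0.95 for Rph3al, -0.02 for Cry2 and -1.85 for Pfkl. With all 4 young arrays they turned to -0.01 for Foxa2, 0.23 for Emcn, -0.19 for Rph3al and -0.22 for Pfkl. The cause was not tested. Dim signals, such as those of Mki67 in old islets, well under the array median, leave the size of a difference poorly fixed.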

Other observations

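Nnt, the mitochondrial transhydrogenase whose partial deletion sets C57BL/6J mice apart from related substrains, followed the replicate number in young islets. Its brightest probe set read 211 to 563 on the 6 arrays of young replicates 1 and 3 and 631 to 1192 on the 6 arrays of young replicates 2 and 4, higher in the even replicate of every young group outside the time course. At 11 mM this was 470 on young array 3 and 1019 on young array 4, against 322 and 437 in old islets (-0.86, SE 0.66, limma adjusted p 0.412). The 8 old arrays read 267 to 590 and the 6 time course arrays 150 to 195. Wdfy1, another gene reported to differ between substrains, read 254 on young array 3, 403 on young array 4 and 158 and 161 in old islets. Of 5 measured genes known to differ between substrains limma called 1, Ide, where 15.6% of all genes were called. Ide read 618 and 719 in old and 382 and 453 in young islets (0.66, limma adjusted p 0.0238). On young arrays 1 and 2 it read 639 and 587, and its call was lost in 6 alternatives. The part of substrain in the age differences was not tested. The position of the Nnt probe sets relative to the deletion was not analysed here.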
